A study of Mus musculus with 18 samples.

Results

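The genes described are the ligands and receptors of the tumour necrosis factor (TNF) superfamily in the dorsal spinal cord of mice with an inflamed hindpaw. They were taken by name from the expression tables, as rows that carry 1 gene name and whose name is Tnf, Lta, Ltb, Fas, Fasl, Cd27, Cd40, Cd40lg, Cd70, Ltbr or a numbered Tnfsf or Tnfrsf symbol. This gave 34 genes, 12 ligands and 22 receptors, of 18444 genes that have a row of their own. Where a name had several rows, the row with the highest mean level over the 6 groups was read, which concerned 6 of the 34.

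All 18 mice were C57BL/6 (C57BL/6N in the study's methods), 3 months old, and had received an intraspinal injection of a recombinant adeno-associated virus (rAAV), so that no group was free of virus. The rAAV expressed the control protein LacZ, the histone deacetylase HDAC4 in its wild-type form (HDAC4 wt), or its mutant HDAC4 3SA, which stays in the nucleus. Each vector was combined with an intraplantar injection of saline or of Complete Freund's adjuvant (CFA), an emulsion that inflames the paw, and tissue of the dorsal cord at L3-5 was taken 24 h later from 3 mice in each of the 6 groups. The vectors had been delivered into the dorsal horn on both sides by laminectomy at least 3 weeks earlier, CFA went into 1 hindpaw, and the RNA came from whole tissue, so that it also holds RNA of cells the virus did not reach. In such bulk tissue, fewer cells of a type and less RNA per cell cannot be told apart.

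The level of a gene is given in FPKM, sequenced fragments counted per kilobase of exon and scaled by library size, and there is 1 value for each group, an estimate over its 3 mice. The spread between mice cannot be read from these values, so no difference could be tested from them, and the authors' own test results were not used. The depth of a single library is unknown, although the study's methods state a minimum. The tables of the 3 vectors were made in separate runs, so a level set across vectors is a description. Differences are log2 ratios after adding 0.1 FPKM. A gene is called higher or lower past 0.5 in either direction, a ratio of 1.41, where the mean of both groups is at least 0.5 FPKM, and the share of all genes called in the same way stands beside the first count of each comparison and again beside the gene lists. Hdac4 itself read 7.41 and 7.72 FPKM in LacZ, 10.1 and 10.8 FPKM in HDAC4 wt, and 8.86 and 8.81 FPKM in HDAC4 3SA, and here as throughout the saline group comes first and the CFA group second.

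TNF superfamily ligands are trimeric proteins of the cell surface, some of which are shed, and their receptors carry cysteine-rich domains outside the cell. Death domain receptors such as TNFR1 and Fas assemble adaptors that lead to caspase-8 or to NF-kB, receptors without this domain bind TRAF proteins and signal to NF-kB, and decoy receptors take up ligand without signalling. In the spinal cord, TNF is known as a product of microglia that raises excitatory transmission in the dorsal horn during inflammatory pain, whereas many other members belong to the contact between lymphocytes and antigen-presenting cells.

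Sequences at the RefSeq gene start are shown for 6 members whose levels the results turn on, 5 that were higher with HDAC4 vectors or are the founding ligand, and Tnfrsf21, the member with the highest mean level, as a contrast. Each is the stretch of 250 bases before the RefSeq gene start on GRCm38.p6, read 5' to 3' along the gene, and the capitals mark matches to a motif of NF-kB, of PU.1 (GAGGAAG) or of MEF2, searched on both strands. PU.1 is the master transcription factor of myeloid and B cells, and MEF2 factors are the best known partners of HDAC4. The windows are chr17:35202008-35202257, minus strand for Tnf, chr17:35194257-35194506, plus strand for Ltb, chr4:145246871-145247120, minus strand for Tnfrsf1b, chr11:61126505-61126754, plus strand for Tnfrsf13b, chr6:125349473-125349722, plus strand for Tnfrsf1a, and chr17:43016305-43016554, plus strand for Tnfrsf21.
Tnf: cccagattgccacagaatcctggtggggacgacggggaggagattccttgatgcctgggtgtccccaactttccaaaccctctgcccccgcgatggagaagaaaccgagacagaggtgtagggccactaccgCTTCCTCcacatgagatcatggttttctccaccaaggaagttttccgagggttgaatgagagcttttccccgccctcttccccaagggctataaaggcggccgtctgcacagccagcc
Ltb: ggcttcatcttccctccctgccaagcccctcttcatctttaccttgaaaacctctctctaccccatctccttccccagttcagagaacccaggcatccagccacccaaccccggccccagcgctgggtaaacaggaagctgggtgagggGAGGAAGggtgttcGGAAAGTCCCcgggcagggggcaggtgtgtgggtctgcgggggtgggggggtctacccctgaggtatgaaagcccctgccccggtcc
Tnfrsf1b: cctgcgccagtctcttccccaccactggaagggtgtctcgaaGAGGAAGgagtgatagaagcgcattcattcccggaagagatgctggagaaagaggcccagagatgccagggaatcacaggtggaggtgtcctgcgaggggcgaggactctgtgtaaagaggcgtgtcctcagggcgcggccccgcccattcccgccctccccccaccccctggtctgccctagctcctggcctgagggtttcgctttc
Tnfrsf13b: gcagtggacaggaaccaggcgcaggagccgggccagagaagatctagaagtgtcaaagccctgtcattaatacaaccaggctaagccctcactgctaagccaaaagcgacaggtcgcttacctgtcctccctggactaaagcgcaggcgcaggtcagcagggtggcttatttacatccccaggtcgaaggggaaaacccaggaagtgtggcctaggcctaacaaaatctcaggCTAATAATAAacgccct
Tnfrsf1a: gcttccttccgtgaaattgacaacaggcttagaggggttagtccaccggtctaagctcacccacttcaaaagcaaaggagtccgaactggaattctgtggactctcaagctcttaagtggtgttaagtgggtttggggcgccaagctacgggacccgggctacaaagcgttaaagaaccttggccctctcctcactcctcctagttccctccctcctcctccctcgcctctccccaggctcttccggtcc
Tnfrsf21: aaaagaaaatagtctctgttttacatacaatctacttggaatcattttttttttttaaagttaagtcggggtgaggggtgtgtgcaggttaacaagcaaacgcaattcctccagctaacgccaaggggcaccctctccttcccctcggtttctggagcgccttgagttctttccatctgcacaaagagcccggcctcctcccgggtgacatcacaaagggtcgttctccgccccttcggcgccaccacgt

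The Tnf window holds 1 PU.1 match, written as CTTCCTC because it lies on the opposite strand, and the Tnfrsf1b window holds 1 on the strand of the gene. In Ltb, the PU.1 match is followed by an NF-kB match on the opposite strand that does not overlap it. The single MEF2 match of Tnfrsf13b reads as a match on both strands. The windows of Tnfrsf1a and Tnfrsf21 hold none of the 3 motifs. The start of a gene differs between annotations, and the Tnfrsf1a window lies with all 250 bases inside the measured row and inside the GENCODE gene, so that it is not upstream of the gene as measured. The Tnfrsf21 window also lies inside its row, and those of Tnfrsf1b and Ltb overlap their rows by 189 and 41 bases, of which only Ltb also overlaps its GENCODE gene, by 68 bases. Windows were at hand for 26 of the 34 members, 30 windows in all, and NF-kB matches lay in those of Ltb, Tnfrsf8 and Tnfrsf9, MEF2 matches in those of Tnfrsf13b and Tnfrsf4, and PU.1 matches in those of Ltb, Tnf, Tnfrsf1b and Tnfrsf25. Of all 32851 windows, 3.90% held the NF-kB motif, 2.92% the MEF2 motif and 10.6% the PU.1 motif. Of the members called higher in the HDAC4 wt saline group over the LacZ saline group, 12 had a window, of which 1 held an NF-kB, 2 a MEF2 and 2 a PU.1 match.

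Several members are neighbours in the genome. Ltb (chr17:35194466-35196300), Tnf (chr17:35199384-35201996) and Lta (chr17:35203162-35205348) lie side by side on chromosome 17. Tnfrsf1a (chr6:125349463-125362691) and Ltbr (chr6:125306568-125314202) lie close together on chromosome 6, as do Tnfrsf4 (chr4:156013836-156016621) and Tnfrsf18 (chr4:156018372-156031651) on chromosome 4. The row of a gene covered at least 90% of its annotated exon bases for 25 members in every table, under 50% for 5 members in every table and for 7 in at least 1 table, and 3 rows overlap another coding gene. These are Tnfrsf1a, which overlaps Plekhg6, Cd27, which overlaps Vamp1 and Tapbpl, and Tnfrsf9, which lies within Camta1.

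The members spanned a wide range of levels. Over the 6 groups, 17 had a mean of at least 1 FPKM, 17 lay below it, 15 stayed under 1 FPKM in every group, and Cd40lg was listed at 0 in the LacZ saline group. These means pool groups whose levels differ by vector, so their order does not hold in each. The highest means belonged to receptors, Tnfrsf21 with 33.9 FPKM, Tnfrsf1a with 27.6 FPKM, Tnfrsf19 with 16.8 FPKM and Ltbr with 10.2 FPKM. The highest mean of a ligand was 2.84 FPKM, that of Ltb, followed by Tnfsf13b with 2.38 FPKM and Tnfsf10 with 2.03 FPKM. In both LacZ groups Ltb was below Tnfsf13b and Tnfsf10, and Tnfrsf1a was below Tnfrsf19, while after CFA with either HDAC4 vector Tnfrsf1a was above Tnfrsf21. Tnf itself had a mean of 0.452 FPKM, so that TNFR1 transcript was far more abundant per length than that of its ligand.

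**Figure D1:**
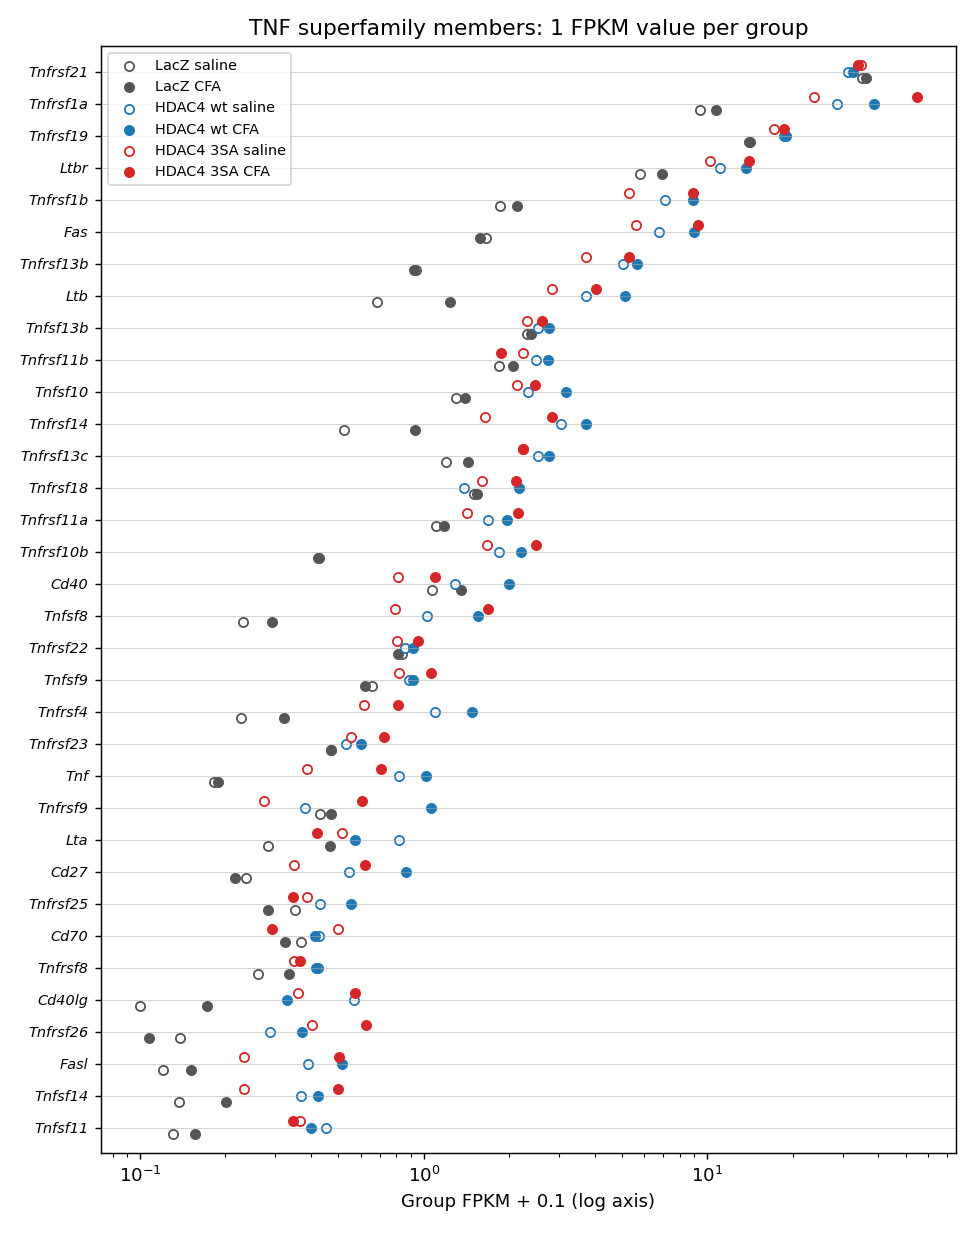
Level of each of the 34 members in the 6 groups, 1 FPKM value per group with 0.1 added, on a log axis; open circles are saline and filled circles CFA, grey LacZ, blue HDAC4 wt and red HDAC4 3SA. Of the 20 members that can be compared across vectors at a mean of 0.5 FPKM, 15 have all 4 HDAC4 values above both LacZ values, against 35.2% of all genes. Tnfrsf21 stays between 31.2 and 36.1 FPKM.

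In saline mice, many members were at a higher level with either HDAC4 vector than with LacZ, receptors of death domain and TRAF type and lymphotoxin beta among them, and none was called lower. In HDAC4 wt, 13 of the 20 members at the minimum were called higher and 0 lower, against 15.2% and 5.44% of all genes. In HDAC4 3SA, 10 of the 18 members at the minimum were called higher and 0 lower, against 11.7% and 3.95%. The median log2 difference of these members was 1.005 with HDAC4 wt and 0.77 with HDAC4 3SA, beside 0.07 and 0.05 over all genes. A member can reach the minimum through the HDAC4 group alone. Without a minimum, the HDAC4 value was above the LacZ value in 28 of 30 members for HDAC4 wt and in 27 of 30 for HDAC4 3SA, where 59.5% of all genes were above in each case. Fasl, Cd40, Tnfrsf9 and Tnfrsf25 were left out here, because their rows lie at places that do not overlap between the tables.

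**Figure D2:**
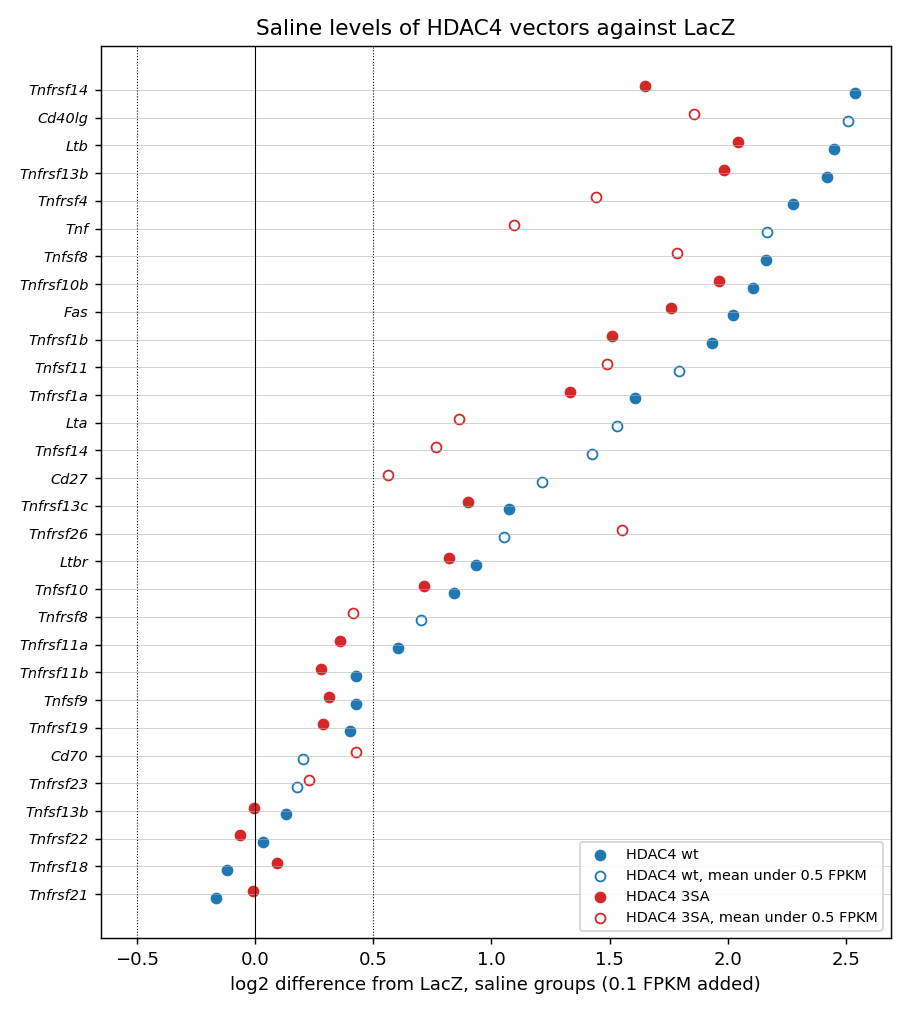
log2 difference of the saline level in HDAC4 wt (blue) and HDAC4 3SA (red) from LacZ, 0.1 FPKM added, for 30 members; open circles have a mean under 0.5 FPKM and dotted lines mark 0.5 in either direction. The points run from -0.17 for Tnfrsf21 to 2.54 for Tnfrsf14, both in HDAC4 wt, and no filled point lies past the line on the left.

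The separation held in both treatments for most of them. The 4 HDAC4 values lay above both LacZ values in 15 of the 20 members whose mean reached 0.5 FPKM, against 35.2% of all genes. That mean is taken over the 6 groups, so a member can reach it through the HDAC4 groups alone. Tnfsf8 is such a case, with 0.131 and 0.191 FPKM in LacZ. Without this minimum the count was 23 of 30, for which the share of all genes was not computed. The 4 HDAC4 values lay below both LacZ values in 1 of the 20, Tnfrsf21, against 20.8% of all genes. Between the HDAC4 vectors, the saline level of HDAC4 3SA was below that of HDAC4 wt for 18 of the 20, against 53.7% of all genes. With the CFA groups in place of the saline groups, 15 of 21 members were called higher in HDAC4 wt and 13 of 19 in HDAC4 3SA, against 15.7% and 16.8% of all genes.

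After CFA, HDAC4 3SA had the most members called higher over the saline group of the same vector. The order of LacZ and HDAC4 wt depended on the minimum, which fewer members reached in LacZ. Without a minimum, 6 of 34 were higher in LacZ and 5 of 34 in HDAC4 wt, against 6.22% and 6.50% of all genes. In LacZ, 2 of the 18 members at the minimum were higher, Ltb and Tnfrsf14, and 0 were lower, against 3.59% and 2.16% of all genes. In HDAC4 wt, 5 of 25 were higher, Cd27, Cd40, Tnfrsf18, Tnfrsf9 and Tnfsf8, and 1 was lower, Lta, against 4.89% and 3.13%. In HDAC4 3SA, 9 of 22 were higher, Fas, Ltb, Tnfrsf10b, Tnfrsf11a, Tnfrsf13b, Tnfrsf14, Tnfrsf1a, Tnfrsf1b and Tnfsf8, and 0 were lower, against 9.18% and 3.28%. The median log2 difference of the members was 0.10, 0.30 and 0.42 in the same order, while that of all genes was between 0.00 and 0.01.

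Read without a minimum, 23 of the 34 members were above their saline value with LacZ, 29 with HDAC4 wt and 28 with HDAC4 3SA, where 53.0%, 51.3% and 53.7% of all genes were. Among the 20 members that can be compared across vectors at a mean of 0.5 FPKM, the difference was largest in HDAC4 3SA for 12, against 36.5% of all genes, and 12 had a higher CFA value in all 3 vectors, against 24.4%. Whether the differences themselves differ between the vectors could not be tested with 1 value per group. Many of the calls lie near the threshold or at low levels, where a larger added constant shrinks the difference. With LacZ, Ltb and Tnfrsf14 stood at 0.85 and 0.83, and at 0.43 and 0.36 with 1 FPKM added in place of 0.1 FPKM. With 1 FPKM added, 0 members remained past the threshold with LacZ, 1 with HDAC4 wt and 5 with HDAC4 3SA. The shares of all genes called higher were then 1.79%, 2.99% and 6.21%.

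**Figure D3:**
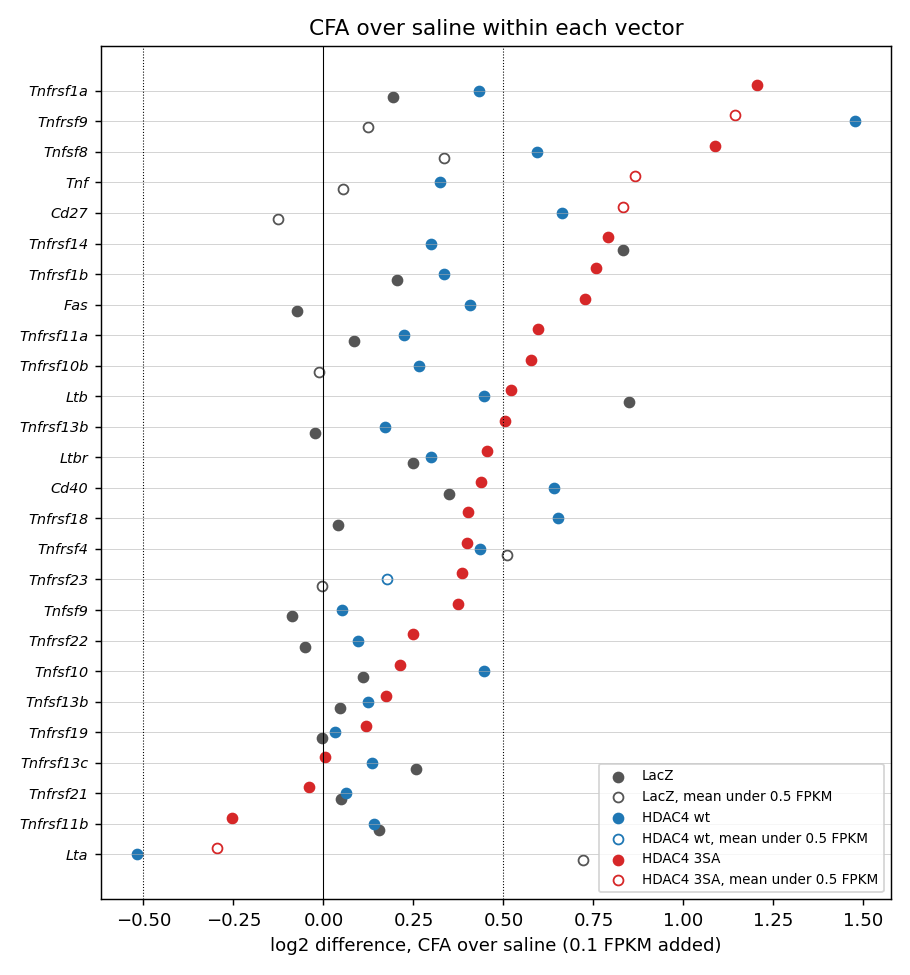
log2 difference of CFA over saline within LacZ (grey), HDAC4 wt (blue) and HDAC4 3SA (red), 0.1 FPKM added, for the 26 members that reach a mean of 0.5 FPKM in a vector; open circles are below that mean in the vector shown and dotted lines mark 0.5 in either direction. Tnfrsf1a reaches 1.20 in HDAC4 3SA with 0.43 in HDAC4 wt and 0.19 in LacZ, and Tnfrsf21 stays between -0.04 and 0.06.

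Among the ligands, Ltb had the highest value in each HDAC4 group but not in LacZ. Ltb, which encodes lymphotoxin beta, the membrane anchor of the lymphotoxin trimer made by lymphocytes, read 0.586 and 1.14 FPKM in LacZ, 3.65 and 5.01 FPKM in HDAC4 wt, and 2.72 and 3.95 FPKM in HDAC4 3SA. All 4 HDAC4 values were above both LacZ values, the saline level was 6.23 and 4.65 times that of LacZ, and the CFA value was the higher of each pair, with log2 differences of 0.85 with LacZ, 0.45 with HDAC4 wt and 0.52 with HDAC4 3SA. Lta, its partner lymphotoxin alpha, read 0.183 and 0.367 FPKM in LacZ, 0.719 and 0.472 FPKM in HDAC4 wt, and 0.415 and 0.320 FPKM in HDAC4 3SA. Its CFA value was below the saline value with both HDAC4 vectors and was called lower in HDAC4 wt (-0.52), while the LacZ pair ran the other way at a mean below 0.5 FPKM.

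Tnf, given here although its mean falls below 1 FPKM, was called neither after CFA within a vector nor at saline, and read 0.0821 and 0.0890 FPKM in LacZ, 0.718 and 0.923 FPKM in HDAC4 wt, and 0.289 and 0.608 FPKM in HDAC4 3SA. Both LacZ values were the lowest. The CFA value was 1.08, 1.29 and 2.10 times the saline value in LacZ, HDAC4 wt and HDAC4 3SA, but only the HDAC4 wt pair reached a mean of 0.5 FPKM. Neither saline comparison with LacZ reached that mean, so Tnf could not be called there. Between the CFA groups of these vectors, Tnf was called higher with HDAC4 wt than with LacZ, by 2.44 on the log2 scale.

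Tnfsf10 encodes TRAIL, a ligand of death receptors, and read 1.20 and 1.30 FPKM in LacZ, 2.22 and 3.06 FPKM in HDAC4 wt, and 2.03 and 2.37 FPKM in HDAC4 3SA. It was called higher at saline with both HDAC4 vectors, by 0.84 and 0.72 on the log2 scale, and was called in no vector after CFA. Tnfsf13b encodes BAFF, the survival factor of B cells, and differed little, with 2.21 and 2.29 FPKM in LacZ, 2.43 and 2.66 FPKM in HDAC4 wt, and 2.21 and 2.50 FPKM in HDAC4 3SA. The 6 BAFF values lay between 2.21 and 2.66 FPKM although 1 of its receptors, described with the TRAF-binding receptors, spanned a wide range.

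Tnfsf8 encodes the CD30 ligand of activated T cells and myeloid cells. It read 0.131 and 0.191 FPKM in LacZ, 0.931 and 1.46 FPKM in HDAC4 wt, and 0.695 and 1.59 FPKM in HDAC4 3SA. The LacZ values were far below the rest, and the CFA value was called higher with both HDAC4 vectors, by 0.59 and 1.09. The other 6 ligands, Tnfsf9 (4-1BB ligand), Cd70 (CD27 ligand), Cd40lg (CD40 ligand), Fasl (Fas ligand), Tnfsf14 (LIGHT) and Tnfsf11 (RANK ligand), had means between 0.209 FPKM for Tnfsf11 and 0.727 FPKM for Tnfsf9, and were called neither after CFA within a vector nor at saline. Only Tnfsf9 reached the minimum in these comparisons, so the others could not be called. Below it, Cd40lg, Tnfsf11, Tnfsf14 and Cd70 lay above LacZ at saline in HDAC4 wt, by 2.51, 1.79, 1.43 and 0.20. Between the CFA groups, Tnfsf9 was called higher than with LacZ by 0.56 for HDAC4 wt and 0.77 for HDAC4 3SA on the log2 scale. Cd40lg went from a listed 0 to 0.0727 FPKM in LacZ, from 0.470 to 0.229 FPKM in HDAC4 wt and from 0.262 to 0.472 FPKM in HDAC4 3SA, so that its direction was not shared.

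Of the 5 death domain receptors, of which 4 reached the minimum, 3 were called higher at saline with both HDAC4 vectors (15.2% and 11.7% of all genes), and the same 3, Tnfrsf1a, Fas and Tnfrsf10b, were called higher after CFA in HDAC4 3SA (9.18% of all genes). None of the 5 was called after CFA in LacZ or HDAC4 wt. Tnfrsf1a, which encodes TNFR1, the receptor for soluble TNF, read 9.32 and 10.7 FPKM in LacZ, 28.6 and 38.6 FPKM in HDAC4 wt, and 23.6 and 54.6 FPKM in HDAC4 3SA. The saline level was 3.07 and 2.54 times that of LacZ, and the HDAC4 3SA CFA value was the highest of the 6, at 2.31 times its saline value against 1.35 in HDAC4 wt and 1.14 in LacZ. Plekhg6, the gene its row overlaps, did not exceed 0.566 FPKM in any group.

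Fas, the receptor that starts apoptosis on binding Fas ligand, read 1.56 and 1.48 FPKM in LacZ, 6.65 and 8.86 FPKM in HDAC4 wt, and 5.52 and 9.20 FPKM in HDAC4 3SA. The HDAC4 groups were all above the LacZ groups, and CFA over saline was 0.95, 1.33 and 1.67 in LacZ, HDAC4 wt and HDAC4 3SA. Tnfrsf10b, the signalling TRAIL receptor of the mouse, followed the same order with 0.327 and 0.323 FPKM in LacZ, 1.74 and 2.11 FPKM in HDAC4 wt, and 1.56 and 2.38 FPKM in HDAC4 3SA. Its saline level was 5.32 and 4.79 times that of LacZ, and the CFA log2 difference was 0.58 in HDAC4 3SA.

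Tnfrsf21 behaved otherwise. It encodes DR6, a death receptor with a known role in axon degeneration, and had the highest level of all members in LacZ, with 35.0 and 36.1 FPKM there, 31.2 and 32.5 FPKM in HDAC4 wt, and 34.7 and 33.8 FPKM in HDAC4 3SA. Its 6 values differed by less than the threshold in every comparison, and it was the member with both HDAC4 pairs below the LacZ pair. Tnfrsf25 (DR3) had a mean of 0.292 FPKM and a row that covers different exons in different tables.

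The TRAF-binding receptors were the largest class with 13 genes. Of the 9 at the minimum in HDAC4 wt saline, 7 were called higher than in LacZ, and of the 8 in HDAC4 3SA, 5 were, beside 15.2% and 11.7% of all genes. After CFA, 1 of 9 was called higher in LacZ, 4 of 12 in HDAC4 wt and 4 of 10 in HDAC4 3SA, beside 3.59%, 4.89% and 9.18% of all genes, and 0 were called lower in any vector. The receptors are taken in the order of their ligands, first the TNF and lymphotoxin receptors, then those of BAFF and LIGHT, and then those known from T cells.

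Tnfrsf1b encodes TNFR2, the receptor for membrane-bound TNF, found mainly on immune cells and microglia. It read 1.75 and 2.03 FPKM in LacZ, 6.98 and 8.82 FPKM in HDAC4 wt, and 5.18 and 8.83 FPKM in HDAC4 3SA. The saline level was 3.98 and 2.95 times that of LacZ, and of the 3 vectors only HDAC4 3SA passed the threshold after CFA, at 0.76. Ltbr, the lymphotoxin beta receptor of stromal and myeloid cells, read 5.70 and 6.79 FPKM in LacZ, 11.0 and 13.6 FPKM in HDAC4 wt, and 10.1 and 13.9 FPKM in HDAC4 3SA. It was called higher at saline with both HDAC4 vectors, and its CFA differences of 0.25, 0.30 and 0.45 stayed below the threshold.

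The BAFF receptors diverged from their ligand. Tnfrsf13b encodes TACI, a receptor for BAFF and APRIL on B and plasma cells, and read 0.840 and 0.824 FPKM in LacZ, 4.94 and 5.57 FPKM in HDAC4 wt, and 3.62 and 5.18 FPKM in HDAC4 3SA. That was 5.88 and 4.31 times the LacZ level at saline, with a CFA log2 difference of 0.50 in HDAC4 3SA that lies at the threshold. Tnfrsf13c, the BAFF receptor of B cells, spanned less, with 1.10 and 1.33 FPKM in LacZ, 2.42 and 2.67 FPKM in HDAC4 wt, and 2.13 and 2.14 FPKM in HDAC4 3SA. Both were called higher at saline with both HDAC4 vectors, and neither was called after CFA in LacZ or HDAC4 wt.

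Tnfrsf14 encodes HVEM, which binds LIGHT and the lymphocyte inhibitory receptor BTLA. It read 0.423 and 0.831 FPKM in LacZ, 2.94 and 3.64 FPKM in HDAC4 wt, and 1.54 and 2.74 FPKM in HDAC4 3SA. It showed the largest saline ratio among the members above a mean of 1 FPKM, 6.94 in HDAC4 wt, and was called higher after CFA in LacZ (0.83) and HDAC4 3SA (0.79) but not in HDAC4 wt (0.30). Tnfrsf11a encodes RANK, the receptor that drives osteoclast formation and is also found on myeloid cells. It read 1.01 and 1.07 FPKM in LacZ, 1.58 and 1.86 FPKM in HDAC4 wt, and 1.32 and 2.05 FPKM in HDAC4 3SA, with a call after CFA only in HDAC4 3SA, at 0.60.

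Receptors known from T cells were at low levels. Tnfrsf4 (OX40), a costimulatory receptor of activated T cells, read 0.127 and 0.223 FPKM in LacZ, 0.997 and 1.38 FPKM in HDAC4 wt, and 0.515 and 0.711 FPKM in HDAC4 3SA. Cd27, which sustains T cell and memory B cell responses, read 0.136 and 0.116 FPKM in LacZ, 0.447 and 0.767 FPKM in HDAC4 wt, and 0.248 and 0.520 FPKM in HDAC4 3SA. In both genes the LacZ values were the lowest, Tnfrsf4 was called higher at saline in HDAC4 wt, and Cd27 was called higher after CFA in HDAC4 wt, at 0.66. Of the genes that the Cd27 row overlaps, Vamp1 read between 229.7 and 407.7 FPKM and Tapbpl between 2.92 and 6.93 FPKM in the 6 groups, and their part in the Cd27 values was not tested. Tnfrsf18 (GITR), high on regulatory T cells, read 1.40 and 1.44 FPKM in LacZ, 1.28 and 2.07 FPKM in HDAC4 wt, and 1.50 and 2.01 FPKM in HDAC4 3SA. Its saline values were alike in the 3 vectors, and its call after CFA in HDAC4 wt (0.65) depends on the row, since the sum of its 3 rows gave 0.15 there and 0.58 in HDAC4 3SA.

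Cd40, the receptor through which helper T cells activate B cells and microglia, read 0.966 and 1.26 FPKM in LacZ, 1.19 and 1.91 FPKM in HDAC4 wt, and 0.711 and 0.998 FPKM in HDAC4 3SA, and was called higher after CFA in HDAC4 wt, at 0.64. Tnfrsf9 (4-1BB), another costimulatory receptor, read 0.331 and 0.370 FPKM in LacZ, 0.283 and 0.964 FPKM in HDAC4 wt, and 0.174 and 0.506 FPKM in HDAC4 3SA. The CFA value of Tnfrsf9 was 3.41 times the saline value in HDAC4 wt and 2.90 times in HDAC4 3SA. Camta1, the gene within which Tnfrsf9 lies, read between 72.5 and 106 FPKM in the 6 groups, and its part in the Tnfrsf9 values was not tested. For both genes the HDAC4 wt row covers 10.5% and 13.8% of the exon bases at a place apart from that in the other tables, so that their levels are set side by side within a vector only. Without the genes at such places, 3 of 23 members were called higher after CFA in HDAC4 wt, against 4.75% of all genes. Tnfrsf8 (CD30) had a mean of 0.259 FPKM and no call.

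Tnfrsf19, or TROY, known from neural progenitors and as a coreceptor for myelin inhibitors, was the exception among the abundant TRAF-binding receptors. It read 13.98 and 13.93 FPKM in LacZ, 18.5 and 18.9 FPKM in HDAC4 wt, and 17.1 and 18.5 FPKM in HDAC4 3SA, and was called in no comparison. Its HDAC4 values were above the LacZ values by a ratio of 1.32 and 1.22 at saline.

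No decoy receptor was called in any comparison. Tnfrsf11b, or osteoprotegerin, a soluble receptor that takes up RANK ligand and TRAIL, read 1.75 and 1.96 FPKM in LacZ, 2.39 and 2.64 FPKM in HDAC4 wt, and 2.14 and 1.78 FPKM in HDAC4 3SA. It was one of few members whose CFA value was below the saline value in HDAC4 3SA, by a log2 difference of -0.25. Tnfrsf22 and Tnfrsf23, decoy receptors for TRAIL in the mouse, had means of 0.764 and 0.459 FPKM. Tnfrsf26, which lies next to them on chromosome 7 and has no assigned ligand, had a mean of 0.223 FPKM from a row that covers 10.7% of its exon bases.

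At saline, marker genes of immune cells were higher with the HDAC4 vectors, as many members were, while after CFA the marker lists differed in direction. The summed FPKM of 9 microglial markers was 167 and 188 in LacZ, 871 and 1098 in HDAC4 wt, and 661 and 1211 in HDAC4 3SA, with 8 of 9 called higher at saline with either HDAC4 vector and 7 of 9 called higher after CFA in HDAC4 3SA, none in LacZ or HDAC4 wt. The shares of all genes called higher are 15.2% and 11.7% at saline and 3.59%, 4.89% and 9.18% after CFA, as for the members. The sum of 8 T cell markers was 2.94 and 3.58 in LacZ, 16.4 and 23.6 in HDAC4 wt, and 9.20 and 16.8 in HDAC4 3SA, and after CFA 0 of 2 at the minimum were called higher in LacZ, 3 of 7 in HDAC4 wt and 8 of 8 in HDAC4 3SA. The sum of 7 markers of B and plasma cells was 28.1 and 32.9 in LacZ, 348 and 373 in HDAC4 wt, and 232 and 309 in HDAC4 3SA. None of these markers was listed at 0 in any group. In LacZ after CFA, where Ltb and Tnfrsf14 were higher, 2 of the 3 B cell markers at the minimum were higher too, Cd79a and Cd79b, and the sum of 8 neutrophil markers was 10.4 before and 108 after CFA. With the HDAC4 vectors the neutrophil sum was lower after CFA, at 39.1 and 27.6 in HDAC4 wt and 58.0 and 36.8 in HDAC4 3SA, and 2 of 4 and 4 of 4 of its markers at the minimum were called lower, against 3.13% and 3.28% of all genes, where 4 of 4 were called higher in LacZ. Of the B and plasma cell markers, 0 of 7 were called after CFA in either HDAC4 vector. The part of any of these cells in the levels of the members was not tested.

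**Figure D4:**
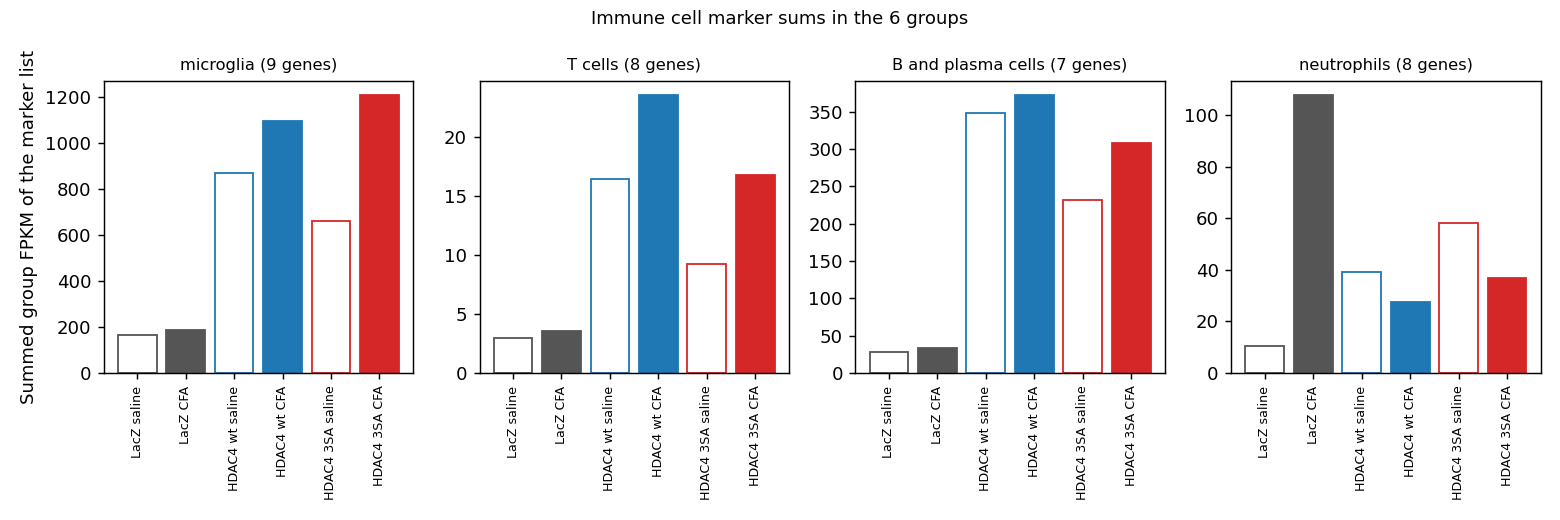
Summed group FPKM of the markers of microglia (9 genes), T cells (8), B and plasma cells (7) and neutrophils (8) in the 6 groups; open bars are saline and filled bars CFA, each panel with its own axis from 0. The first 3 sums are lowest in the LacZ groups, and the neutrophil sum is highest in LacZ after CFA, at 108.

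The tissue also differed in other respects between groups. The sum of 10 neuronal markers was 1884 and 1843 in LacZ, 1435 and 1276 in HDAC4 wt, and 1456 and 1111 in HDAC4 3SA. Snap25 made up most of it, with 1227 FPKM in LacZ and 795 FPKM in HDAC4 wt at saline, and the median log2 difference of the 10 between these groups was -0.06. Summed astrocyte markers, 6 genes, lay between 879 and 1644, with Gfap at 389 FPKM in LacZ and 807 FPKM in HDAC4 wt at saline and a median log2 difference of 0.14. Of 5 Schwann cell markers, 4 were called higher after CFA in LacZ and 4 lower in HDAC4 3SA, and their sums ranged from 842 to 1514. The sum of 6 skeletal muscle markers was 18.7 and 37.8 in LacZ, 7.31 and 2.67 in HDAC4 wt, and 57.5 and 48.0 in HDAC4 3SA. At saline, 6 of 6 were called lower in HDAC4 wt than in LacZ and 6 of 6 higher in HDAC4 3SA. The shares of all genes were 5.44% and 11.7%. Markers of leptomeningeal fibroblasts summed to between 123 and 169, and those of endothelial cells to between 61.9 and 85.1, while 3 markers of dorsal root ganglion neurons stayed between 0.798 and 1.88. Of the 5 oligodendrocyte markers at the minimum after CFA in LacZ and in HDAC4 3SA, 0 were called in either.

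Genes that carry the signals of TNF receptors were read in the same way, and 63 of 66 listed were found. After CFA, 4 of 57 at the minimum were called higher in LacZ and 0 lower, 2 of 61 higher and 1 lower in HDAC4 wt, and 13 of 62 higher and 1 lower in HDAC4 3SA. The shares of all genes were 3.59% higher and 2.16% lower, 4.89% and 3.13%, and 9.18% and 3.28%, so that the HDAC4 wt count lay near its background. At saline, 30 of 60 were called higher in HDAC4 wt than in LacZ and 1 lower, and 24 of 59 higher and 1 lower in HDAC4 3SA, beside 15.2% and 5.44% of all genes, and 11.7% and 3.95%. These shares also apply to the single lists that follow. Tank, an adaptor that binds TRAFs, counts among those higher at saline with both vectors and after CFA in HDAC4 wt, but it was listed at 0 in both LacZ groups and at 11.8 and 108 FPKM in HDAC4 wt, so it gives no fold over LacZ, and a listed 0 in these tables can be a failed estimate.

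Among NF-kB target and feedback genes, Icam1, an adhesion molecule, read 1.24 and 1.90 FPKM in LacZ, 12.4 and 16.4 FPKM in HDAC4 wt, and 9.07 and 16.6 FPKM in HDAC4 3SA. Bcl3, an atypical IkB protein, read 0.534 and 1.15 FPKM in LacZ, 3.72 and 5.05 FPKM in HDAC4 wt, and 2.86 and 5.68 FPKM in HDAC4 3SA. Both were called higher at saline with both HDAC4 vectors and after CFA in LacZ and HDAC4 3SA. Of 11 NF-kB inhibitors and feedback genes, 6 were called higher at saline in HDAC4 wt and 5 in HDAC4 3SA, and of 10 other TNF-induced genes at the minimum, 5 and 4. Of 12 NF-kB subunits and kinases, 5 and 3 were called higher at saline, the largest difference being that of Nfkb2 (1.17) in HDAC4 wt, and only Ikbkg, the regulatory subunit of the IkB kinase, was called lower, by -0.54 and -1.06.

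Close to the death receptors, Casp8, the initiator caspase they recruit, read 1.12 and 1.27 FPKM in LacZ, 3.82 and 5.02 FPKM in HDAC4 wt, and 3.15 and 4.83 FPKM in HDAC4 3SA. It was called higher at saline with both HDAC4 vectors and after CFA in HDAC4 3SA (0.60), as was Fas. Mlkl, the effector of necroptosis, was called higher after CFA in HDAC4 wt (0.52) and HDAC4 3SA (0.95), where it then read 1.83 and 1.48 FPKM. Of the 12 TRAF and adaptor genes, 6 were called higher at saline in HDAC4 wt and 5 in HDAC4 3SA, Birc3 by 1.99 and 1.46, and after CFA 1 was called in LacZ (Birc3, 0.52) and 0 in HDAC4 3SA. Of 5 genes for the processing of TNF, Rhbdf2, a partner of the TNF-cleaving enzyme ADAM17, was called higher after CFA in LacZ (0.56) and HDAC4 3SA (0.53), and Adam17 itself in HDAC4 3SA (0.51). Among receptors of the family under other symbols, Eda2r read 0.210 and 0.274 FPKM in LacZ, 4.14 and 4.46 FPKM in HDAC4 wt, and 3.39 and 5.45 FPKM in HDAC4 3SA.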

How the data were processed

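Strand-specific poly-A libraries of dorsal spinal cord RNA were sequenced as single-end reads of 50 bp. The authors mapped them to the mouse genome (GRCm38, Ensembl release 85) with Bowtie 2.2.9 and TopHat 2.0.14 and used Cufflinks 2.0.0, Cuffmerge and Cuffdiff 2.0.0. For each vector, the authors deposited the gene table of 1 Cuffdiff run, of 34579 loci, and the deposited FPKM values are 1 estimate per group over 3 mice, scaled within each run. Reads that fit several genes can be split among them, which can alter low values. The tables also hold the authors' log2 fold changes, test statistics, p-values and q-values, which were not used. Counts and values per mouse were not analysed here, so no test, SD or interval is given.

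From these values, log2 differences with 0.1 FPKM added, calls past 0.5 at a mean of at least 0.5 FPKM and their shares over all genes were computed with pandas 2.3.3 in Python 3.11.15, and the calling was tested on simulated data. Levels are given for members that reach a mean of 1 FPKM or have a call, other members by range, and signalling genes by counts with examples. Of the loci, 386 lie at places that do not overlap between tables and were left out between vectors. The members, the 12 marker lists (83 genes, 80 found) and the signalling lists were chosen with earlier results of these data known. Exon cover used GENCODE M21, and promoters came from RefSeq. Results of some genes that the naming pattern or the lists take are not reported here. Alternatives were the FPKM added, the minimum, the sum of all rows of a name, centring, and 2 added after seeing the data.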

Additional observations from a re-analysis of the deposited data

How the results depend on the processing

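No called difference changed sign under any alternative, and 90 recomputed counts and medians stayed close to those reported, while 25 moved. With 1 FPKM added, the members called higher after CFA numbered 0 with LacZ, 1 with HDAC4 wt and 5 with HDAC4 3SA (1.79%, 2.99% and 6.21% of all genes) and those called lower in HDAC4 wt numbered 0 (1.67%), and the median log2 difference was 0.25 for CFA in HDAC4 3SA, 0.74 for saline HDAC4 wt over LacZ and 0.52 for saline HDAC4 3SA over LacZ, as follows from a larger constant at low levels. With a minimum of 0.1 FPKM, 4 of 28 members were higher after CFA in LacZ (5.78% of all genes), 2 of 34 were lower in HDAC4 wt (4.54%), 16 of 34 were higher and 1 lower in HDAC4 3SA (10.9% and 4.28%), and at saline 21 of 30 were higher in HDAC4 wt (17.7%), with a median of 1.14, and 18 of 29 in HDAC4 3SA (14.2%). Without a minimum these were 6, 2, 16 and 1 of 34 (6.22%, 4.61%, 11.0% and 4.31% of all genes), and at saline 21 of 30 (17.9%), again with a median of 1.14, and 19 of 30 (14.6%). With a minimum of 1 FPKM, 0 of 13 were higher after CFA in LacZ (2.70%) and 3 of 19 higher and 0 lower in HDAC4 wt (4.24% and 2.39%). Without the genes at places that do not overlap between the tables, an alternative chosen after seeing the data, 3 of 23 were higher after CFA in HDAC4 wt (4.75%). Of the values of single members, 681 kept their side of the threshold, 15 no longer passed it and 1 newly passed it, among them Tnfrsf13b in HDAC4 3SA, at 0.50 when centred. Differences that were not called changed sign in 6 cases, 5 with the rows of a name summed and 1 with centring. Summed rows gave -0.10 in place of 0.21 for Tnfsf10 after CFA in HDAC4 3SA and, at saline in HDAC4 wt over LacZ, 0.38 in place of -0.12 for Tnfrsf18 and -0.04 in place of 0.13 for Tnfsf13b, and after CFA in LacZ -0.04 for Tnfsf13b and -0.03 for Tnfrsf18. Centring gave -0.0015 for Tnfrsf13c after CFA in HDAC4 3SA.

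No paired analysis was possible because the tables hold 1 value per group and no value per mouse, and leaving out a mouse in turn was not run for the same reason, nor were the tests planned for values per mouse or for counts. The depth of single libraries is unknown beyond the minimum in the study's methods, and 17 of 34 members have a mean below 1 FPKM.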

Other observations

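Tnfsf12 (TWEAK) and Tnfsf13 (APRIL) have no row of their own and share 1 row with a fusion transcript of both genes, which therefore gives 1 level for the 3 names. It read 11.9 and 13.7 FPKM in LacZ, 17.9 and 20.7 FPKM in HDAC4 wt, and 16.5 and 20.4 FPKM in HDAC4 3SA, above the mean of every single ligand. The HDAC4 values were above both LacZ values, with a log2 difference of 0.59 at saline in HDAC4 wt and 0.48 in HDAC4 3SA, and CFA over saline was 0.21, 0.21 and 0.30 in LacZ, HDAC4 wt and HDAC4 3SA.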
